A study of Mus musculus with 5 samples.

Results

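A set of 9 genes coding for transcription factors of the myeloid lineage were followed here through mouse bone marrow (BM) before and after cyclophosphamide (CTX), an alkylating chemotherapy drug. The genes were taken by symbol from the feature list of the count matrices: Cebpa, Cebpb, Cebpd, Cebpe, Spi1, Irf8, Gfi1, Runx1 and Gata2, which are 9 of 31053 genes counted. The data were single-cell RNA-seq counts of unique molecular identifiers (UMIs, one per captured RNA molecule) from 5 libraries. Of these, 3 libraries held whole BM of BALB/c mice a few weeks of age, both sexes being used in the study: untreated mice (naive BM), mice 2 days after 1 intraperitoneal dose of 150 mg/kg CTX (D2 CTX) and mice 7 days after the same dose (D7 CTX). Each whole BM library was 1 pool of cells from 3 mice, depleted of dead cells, and the labels gave its cells only as CD45+ mononuclear cells. The other 2 libraries held monocytes sorted as CD11b+Ly6Chi from the BM of naive and of CTX-treated mice (naive sorted and CTX sorted). These were also BALB/c mice of the same age range, and the CTX dose was again 150 mg/kg. The labels gave no day for the sorted CTX library, which the study places at day 7. Each group was 1 library, so no test between groups was possible, and every interval below is a 95% interval that covers counting error only.

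As background, the myeloid transcription factors act in overlapping waves. Runx1 and Gata2 work in stem and early progenitor cells, Gata2 also in basophils, mast cells and megakaryocytes. Spi1 codes for PU.1, the ETS-family factor needed by all myeloid cells and by B cells, and Cebpa codes for C/EBPα, needed to form granulocyte and monocyte progenitors. Irf8 drives the monocyte and dendritic fates, whereas Gfi1 represses monocyte genes and, with Cebpe, is required for granule formation in neutrophils. Cebpb is the C/EBP factor of emergency granulopoiesis and of monocyte survival, and Cebpd is a C/EBP factor of late neutrophils and of the acute-phase response.

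Cells were placed in stages ("gates") by the share of their UMIs in marker lists that held none of the 9 genes. On the neutrophil side the gates ran from Kit-positive cells low in azurophil granule genes (Mpo, Elane, Prtn3, Ctsg), through Kit-positive and Kit-negative azurophil-high cells, cycling neutrophil precursors and non-cycling pre-neutrophils rich in specific granule genes (Ltf, Camp, Ngp, Lcn2, Cd177), to immature and mature neutrophils. On the monocyte side they were cycling monocytic cells, Ly6c2-high monocytes, Ly6c2-low monocytes and MHC class II-rich myeloid cells. The cycling monocytic gate took monocyte-marker cells that passed the cell cycle threshold or had at least 1 Kit UMI. The 5 libraries held 22694817 to 68459527 UMIs over 2223 to 8605 barcodes, of which 1891 to 8290 cells had at least 200 genes and under 20% mitochondrial UMIs. Of these, 93.0% to 99.6% fell in a gate, and 3876 naive, 3010 D2 CTX and 7718 D7 CTX cells fell in the 11 myeloid gates. Pairs of libraries shared 2 to 16 barcodes. Kit-positive meant at least 1 Kit UMI, so that gate depended on depth: its azurophil-low cells had median totals of 15037 UMIs in naive BM, 27045.5 at D2 and 9250 at D7. The level of a gene in a gate is given in CPM, its UMIs per 1e+06 UMIs of all cells of the gate pooled. The 3′ protocol counts one end of each transcript, so levels of different genes were not corrected for length and are not ranked against each other.

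The start regions of the genes whose levels separated the neutrophil from the monocyte gates most sharply are shown where RefSeq's table for GRCm38.p6 held them. Of the 9 genes, 6 were matched in that table (Cebpa, Cebpb, Irf8, Gfi1, Runx1 and Gata2), with 10 start regions. The Cebpa region, chr7:35119193-35119292 on the plus strand, and the Irf8 region, chr8:120736258-120736357 on the plus strand, are the 100 bases before the annotated start, with the letters TATAAA in capitals. The Gfi1 region, chr5:107725806-107726005 on the minus strand, is the 200 bases before a RefSeq start. That stretch lies inside the GENCODE span of the gene, chr5:107716657-107726036. The 8 letters that match the C/EBP-type motif TTGCNNAA are in capitals.
Cebpa: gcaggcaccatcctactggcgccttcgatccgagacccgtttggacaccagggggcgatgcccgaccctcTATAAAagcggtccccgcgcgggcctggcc
Irf8: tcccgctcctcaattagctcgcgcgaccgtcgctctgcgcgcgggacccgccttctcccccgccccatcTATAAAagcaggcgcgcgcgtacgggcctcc
Gfi1: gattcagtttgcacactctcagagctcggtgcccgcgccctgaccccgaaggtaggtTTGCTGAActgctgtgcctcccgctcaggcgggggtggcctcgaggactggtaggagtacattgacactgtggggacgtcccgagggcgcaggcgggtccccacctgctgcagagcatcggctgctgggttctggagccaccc
TATAAA began 30 bases before the Cebpa start and 31 bases before the Irf8 start. Searched on both strands of the 250 bases before the start, TATAAA was present in 12.4% of the table's 32851 regions, and TTGCNNAA, which began 143 bases before that RefSeq start of Gfi1, in 9.56%. No matched start region of a member held the letters GAGGAAG (10.6% of all regions), AGATAA (9.99%) or TGTGGT (14.0%). A match describes the letters alone.

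Naive BM set the reference course of the 9 genes (cells per gate: 121, 55, 149, 416, 854, 879 and 830 along the neutrophil path). The first step, from Kit-positive azurophil-low to Kit-positive azurophil-high cells, had the highest count of differences: 7 of the 9 genes were at least 1 log2 unit apart (1 CPM added to each level), against 32.4% of all genes tested with at least 30 UMIs in that pair. Of the 7, 6 were higher in the azurophil-high cells and Gata2 was lower. From Kit-positive to Kit-negative azurophil-high cells none of 8 genes was that far apart (5.75% of all genes). For Irf8 both counts depended on 1 naive Kit-positive azurophil-high cell. Without the richest cell of each gate, Irf8 was 20.6 CPM in Kit-positive azurophil-high cells. It was then 74.4 CPM in azurophil-low and 90.0 CPM in Kit-negative azurophil-high cells, each at least 1 log2 unit away. Further on, 2 of 8 genes were apart at the step to cycling precursors (26.9% of all genes), 1 of 8 at the step to pre-neutrophils (15.4%), 4 of 8 at the step to immature neutrophils (20.4%) and 2 of 7 at the step to mature neutrophils (9.15%).

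Cebpe, the granule-stage C/EBP factor (chr14:54710360-54712174, minus strand, GRCm38), had a naive range of 9.26 log2 units over the 11 gates, down to the 0 UMIs of MHC II-rich cells. Its range was 5.48 at D2 and 7.16 at D7. MHC II-rich cells were lowest in each library, at 0 (0 to 14.2), 11.9 (3.25 to 30.5) and 3.62 (0.09 to 20.2) CPM. These intervals overlap, so the ranges cannot be separated by counting error. It went from 3.42 CPM in naive Kit-positive azurophil-low cells (9 UMIs) to 254 CPM in Kit-positive azurophil-high cells, a log2 difference of 5.85 (5.27 to 7.36). It was highest in cycling neutrophil precursors at 611 CPM (590 to 634), then 443 CPM in pre-neutrophils, 184 CPM in immature and 67.4 CPM in mature neutrophils. None of these neighbours in the order of levels overlapped in their intervals. The course had the same peak after CTX: cycling precursors held 576 CPM at D2 and 658 CPM at D7. In the monocyte gates of naive BM Cebpe stood at 19.98 to 31.9 CPM, beside the MHC II-rich cells without a UMI. B lineage cells of the same library, which should lack Cebpe, held 20.999 CPM, close to these monocyte values. In the sorted libraries, without the cell richest in Cebpe, cycling monocytic cells held 42.3 CPM in naive and 38.2 CPM in CTX. Ly6c2-high cells there held 37.1 and 43.3 CPM. The part of free RNA in the monocyte values was not tested. After every cell was thinned to 2000 UMIs, 66.0% of naive cycling precursors (250 of 379; 61.0 to 70.7%) carried a Cebpe UMI, against 2.31% of B lineage cells.

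Gfi1, the repressor of monocyte genes (chr5:107716657-107726036, minus strand), peaked earlier on the path, in azurophil-high cells. Its naive level was 1.52 CPM in Kit-positive azurophil-low cells, 86.6 CPM (68.6 to 108) in Kit-positive azurophil-high cells and 51.9 CPM in Kit-negative azurophil-high cells. From there it was lower at each later gate: 29.0 CPM in cycling precursors, 12.5 in pre-neutrophils, 4.24 in immature and 2.99 in mature neutrophils. The last of these pairs could not be separated by counting error. D2 and D7 CTX cells peaked in the same gate, at 58.9 and 68.8 CPM. Naive cycling monocytic cells held 0 Gfi1 UMIs in 136 cells, with an interval of up to 2.27 CPM. B lineage cells, some of which use Gfi1, held 14.7 CPM.

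Cebpa (chr7:35119293-35121928, plus strand) showed a dip within the neutrophil path. It stood at 24.1 CPM in Kit-positive and 23.3 CPM in Kit-negative azurophil-high cells of naive BM. Cycling neutrophil precursors held 2.45 CPM (1.27 to 4.28), a log2 difference of -2.82 (-4.33 to -2.27) from the gate before. B lineage cells held 2.60 CPM, so the precursor level was no higher than background. Immature and mature neutrophils held 15.8 and 16.0 CPM. Cycling precursors and pre-neutrophils held 3.93 and 6.43 CPM at D7. At D2 they held 7.81 (5.34 to 11.03) and 6.19 CPM, and immature neutrophils, at 8.67 CPM (5.93 to 12.2), overlapped with both, so that the higher level came in mature neutrophils, at 18.4 CPM. Monocyte gates held more: 37.5 CPM in cycling monocytic cells, 68.1 CPM in Ly6c2-high and 55.5 CPM in Ly6c2-low monocytes. The 4 monocyte-side gates overlapped with their neighbours in the order. Outside these gates, basophils carried the highest Cebpa levels, at 211, 196 and 294 CPM in naive BM, D2 CTX and D7 CTX.

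Cebpb (chr2:167688915-167690418, plus strand), the stress-responsive C/EBP factor, had its highest levels at the ends of both paths. In naive BM it was 21.7 CPM in Kit-positive azurophil-low cells, 187 CPM in Kit-positive and 281 CPM in Kit-negative azurophil-high cells, and then 161 and 135 CPM in cycling precursors and pre-neutrophils. Immature neutrophils held 474 CPM and mature neutrophils 1051 CPM, steps of 1.80 (1.68 to 1.94) and 1.15 (1.05 to 1.24) log2 units. The same valley and late maximum were seen at D2 (215 and 227 CPM, then 1151 CPM in mature cells) and at D7 (226 and 167 CPM, then 1374 CPM). Among naive monocytes, cycling cells held 585 CPM, Ly6c2-high cells 912 CPM and Ly6c2-low cells 843 CPM, with overlapping intervals for the last pair.

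Cebpd (chr16:15887286-15891031, plus strand), a factor of late granulocytes, was higher at every successive gate of the naive neutrophil path. Its level was 17.9 CPM in Kit-positive azurophil-low cells, 161 and 263 CPM in the azurophil-high gates, 382 CPM in cycling precursors, 436 CPM in pre-neutrophils, 530 CPM in immature and 724 CPM in mature neutrophils. The course at D7 had the same order, from 12.98 to 817 CPM. At D2 the order was the same, from 21.6 to 634 CPM, with immature neutrophils (474 CPM) close to pre-neutrophils (447 CPM). Monocyte gates stayed below the late neutrophil gates, at 127 to 266 CPM in naive BM.

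Spi1 (PU.1; chr2:91082390-91115756, plus strand) was likewise higher at each naive neutrophil gate than at the one before. It was 25.9 CPM in Kit-positive azurophil-low cells, 144 and 206 CPM in azurophil-high cells, 233 CPM in cycling precursors, 308 CPM in pre-neutrophils, 426 CPM in immature and 570 CPM in mature neutrophils. Monocyte gates held 315 to 457 CPM, a span that overlapped with immature neutrophils. B lineage cells, which use PU.1, held 94.0 CPM, and T cells, which do not, held 29.9 CPM. Across the 20 gates of naive BM with at least 20 cells, the Cebpd and Spi1 levels had Pearson's r = 0.91 on the log2 scale (0.88 over 20 gates at D2 and 0.83 over 17 gates at D7), the highest r of any pair of the 9 genes in each library. The gates of a library share its depth and free RNA, so r is a description.

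Irf8 (chr8:120736358-120756694, plus strand), the monocyte and dendritic factor, marked the other side. In naive BM it was 89.8 CPM in Kit-positive azurophil-low cells, 60.3 CPM in Kit-positive azurophil-high cells, 106 CPM in Kit-negative azurophil-high cells and 14.7 CPM in cycling neutrophil precursors. Without the cell richest in Irf8 of each gate, these levels were 74.4, 20.6, 90.0 and 6.56 CPM. Immature and mature neutrophils held 13.9 and 6.49 CPM, under the 40.8 CPM of T cells in the same library. Cycling monocytic cells held 656 CPM (617 to 696), Ly6c2-high monocytes 452 CPM, Ly6c2-low monocytes 444 CPM and MHC II-rich cells 762 CPM. The highest level in the marrow was that of plasmacytoid dendritic cells, at 4087, 3655 and 3674 CPM in naive BM, D2 CTX and D7 CTX. With cells thinned to 2000 UMIs, 63.1% of naive cycling monocytic cells (82 of 130) but 1.58% of naive cycling neutrophil precursors (6 of 379) had an Irf8 UMI, beside 5.56% of T cells.

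Runx1 (chr16:92601466-92826149, minus strand), a factor of stem cells and of many mature lineages, varied least, over 2.18 log2 units across the 11 naive gates. It was 62.4 and 66.9 CPM in the Kit-positive gates, 37.9 CPM in Kit-negative azurophil-high cells, 35.9 CPM in cycling precursors and 21.8 CPM in immature neutrophils. Monocyte gates held 73.5 to 102 CPM with overlapping neighbours. B lineage cells, with 114 CPM, megakaryocytic cells, with 187 CPM, and basophils, with 366 CPM, held more than any of these gates.

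Gata2 (chr6:88193891-88207032, plus strand), the early progenitor factor, was confined on these paths almost wholly to Kit-positive azurophil-low cells. That gate held 66.2 CPM (174 UMIs in 55 of 121 cells) in naive BM, 89.2 CPM (408 UMIs in 75 of 146 cells) at D2 and 50.3 CPM (31 UMIs in 11 of 43 cells) at D7. Kit-positive azurophil-high cells held 2, 2 and 0 UMIs. The other values were single cells or scattered UMIs, such as the 6 UMIs in 1 naive Ly6c2-low cell (13.3 CPM) and the 10 UMIs in 4 D2 pre-neutrophils (10.3 CPM). Basophils held far more, at 810.5, 1174 and 918 CPM, and megakaryocytic cells held 169, 163 and 41.7 CPM.

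**Figure D1:**
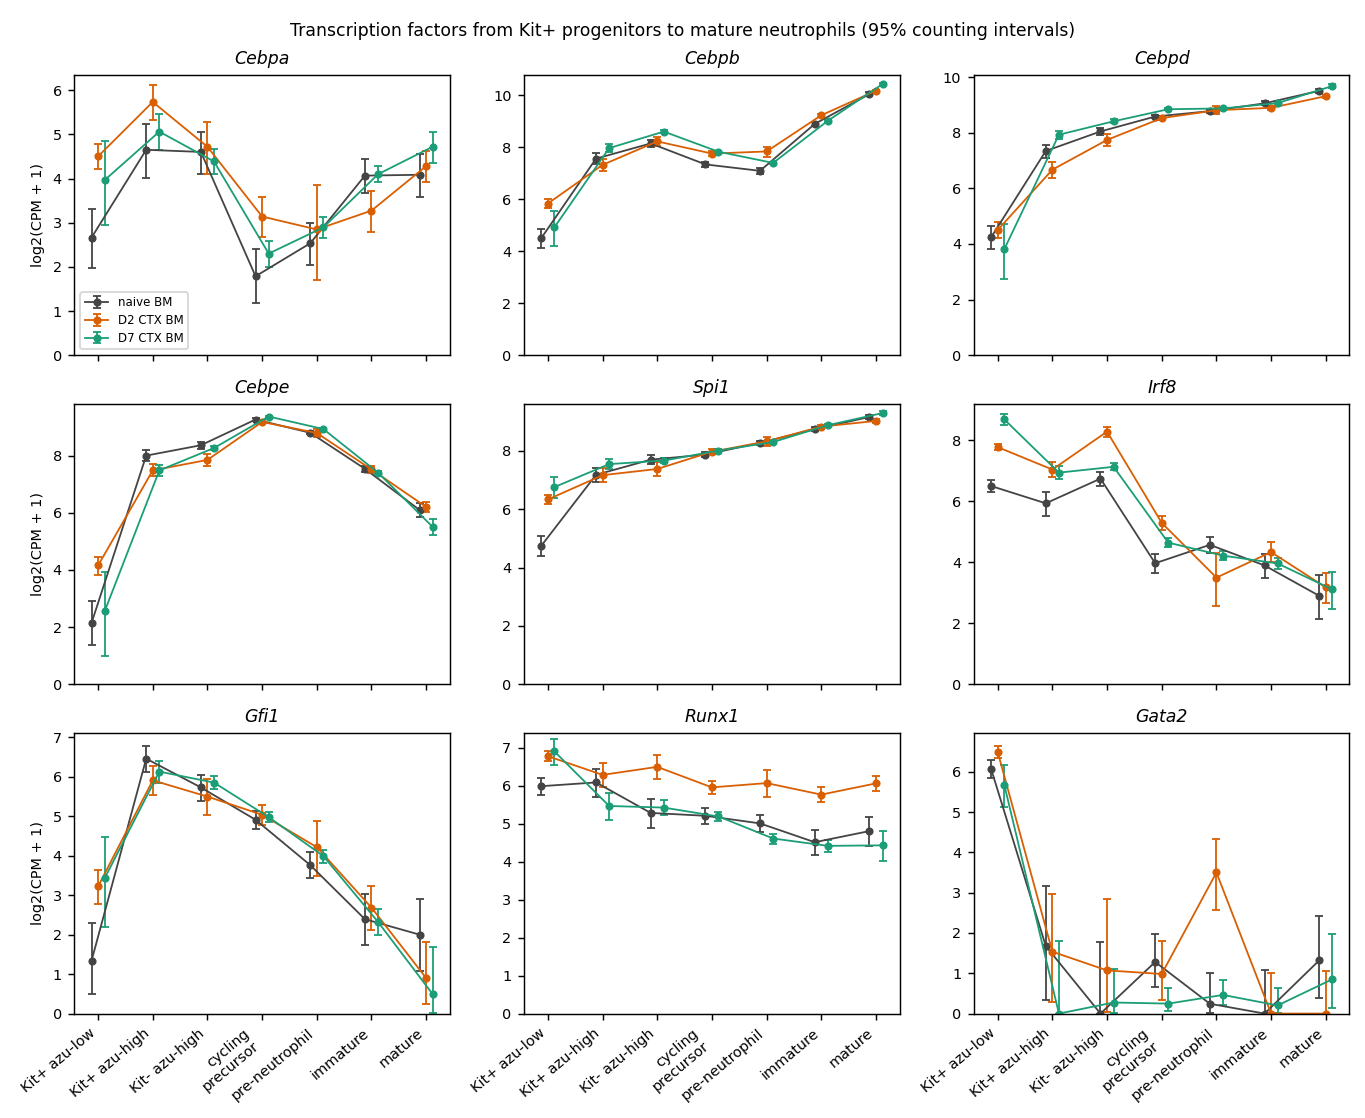
Level of each of the 9 genes, as log2(CPM + 1), at the 7 gates of the neutrophil path in naive BM, D2 CTX and D7 CTX; points are 1 library each and bars are 95% counting intervals. Cebpe peaks in cycling precursors (611, 576 and 658 CPM), Gfi1 in Kit-positive azurophil-high cells (86.6, 58.9 and 68.8 CPM), and Cebpd and Spi1 end highest in mature neutrophils.

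The fork between the lineages was read from the gates named as cycling on both sides, cycling monocytic cells over cycling neutrophil precursors. The monocytic gate also took cells with at least 1 Kit UMI that were under the cell cycle threshold. The gates were thus not matched on cycling. In naive BM 7 of the 8 genes that passed the count minimum were at least 1 log2 unit apart, against 45.6% of all genes tested, 4 higher and 3 lower on the monocytic side. At D2 it was 6 of 8 (44.5% of all genes) and at D7 7 of 8 (51.7%). Irf8 led on the monocytic side, by 5.39 log2 units in naive BM, 3.54 at D2 and 4.96 at D7. Cebpa followed by 3.48, 2.28 and 3.04 log2 units and Cebpb by 1.86, 1.08 and 1.74. Runx1 was 1.40, 0.76 and 1.62 log2 units higher in monocytic cells, which at D2 was under 1 unit. On the neutrophil side stood Cebpe, whose difference was -4.22, -3.24 and -4.58 log2 units, and Cebpd, with -1.31, -1.26 and -1.28. Gfi1 had 142 UMIs (29.0 CPM) in naive cycling precursors, where the monocytic counts were 0, 1 and 0 UMIs in the 3 libraries. Spi1 was near-even, 0.43, 0.20 and 0.53 log2 units higher in monocytic cells.

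**Figure D2:**
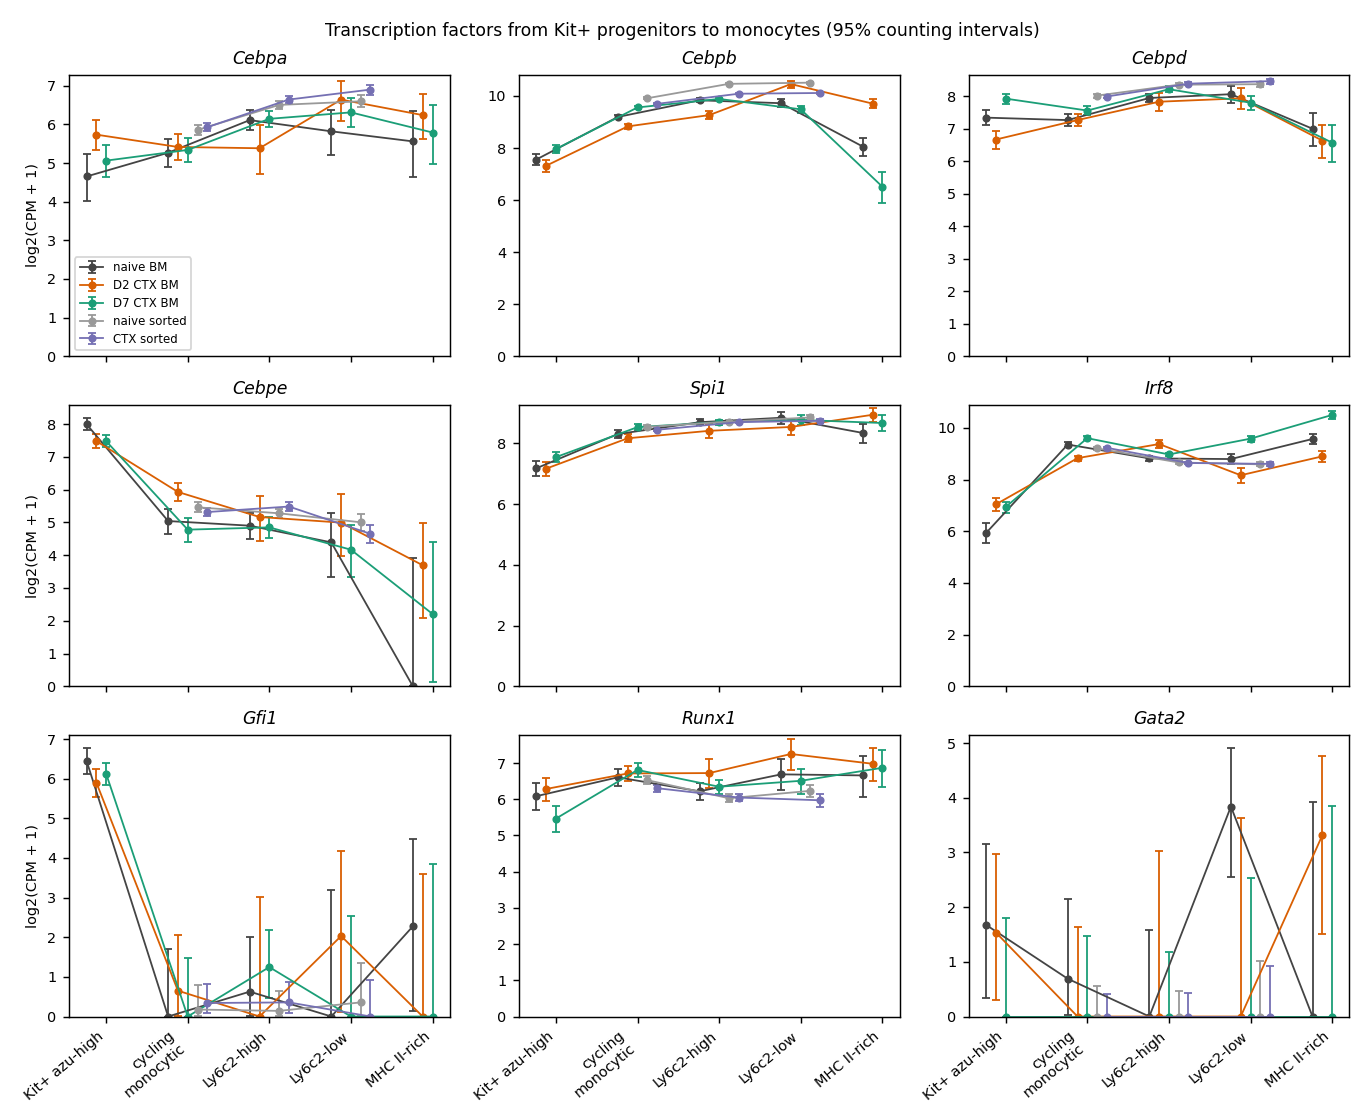
Level of each of the 9 genes, as log2(CPM + 1), from Kit-positive azurophil-high cells through cycling monocytic cells to Ly6c2-high, Ly6c2-low and MHC II-rich cells, in all libraries with at least 20 cells in the gate; bars are 95% counting intervals. In the monocyte gates of whole BM Irf8 is high and Gfi1 is at 0 to 3.85 CPM. Cebpb is high in the cycling, Ly6c2-high and Ly6c2-low gates. In MHC II-rich cells Cebpb is at 265, 835 and 90.5 CPM in naive BM, D2 CTX and D7 CTX.

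Along the naive monocyte path 5 of 8 genes were apart at the step from Kit-positive azurophil-high to cycling monocytic cells (32.8% of all genes), and none of 7 at the step to Ly6c2-high (14.3%) or to Ly6c2-low monocytes (4.37%). Cebpa, Cebpb, Cebpd and Spi1 were nevertheless higher in Ly6c2-high than in cycling cells by 0.84 (0.41 to 1.33), 0.64 (0.53 to 0.76), 0.68 (0.46 to 0.91) and 0.39 (0.23 to 0.55) log2 units. Irf8 was lower by the same comparison, at -0.54 (-0.67 to -0.40). In the sorted libraries, where most cells of the 11 gates were in monocyte gates, 19.7% (naive) and 19.97% (CTX) lay near the Ly6c2 threshold. There the last pair of gates is a division of a range. In whole BM 13.7% to 14.5% lay near it, counted over all 11 gates with neutrophils included, so that share does not describe the monocyte gates alone.

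**Figure D3:**
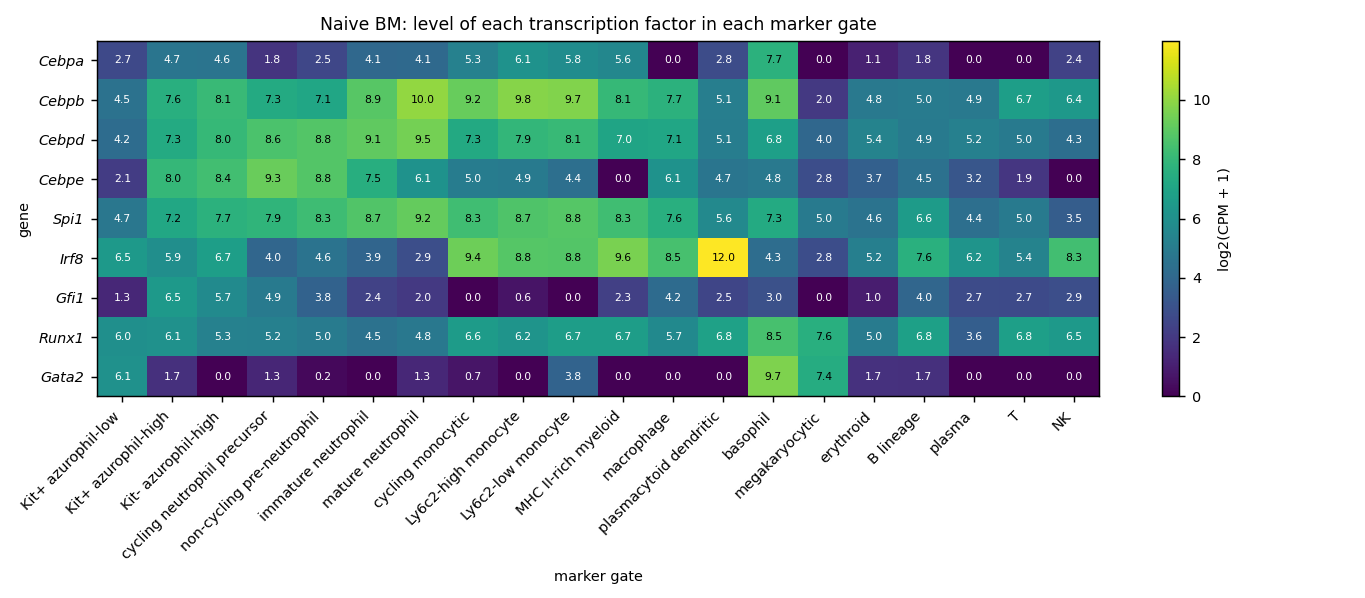
Level of the 9 genes, as log2(CPM + 1), in each of the 20 gates of naive BM. Gata2, Runx1 and Cebpa are highest in basophils (810.5, 366 and 211 CPM), Irf8 in plasmacytoid dendritic cells (4087 CPM), and Cebpe in cycling neutrophil precursors.

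The genes whose naive pattern was most like that of a member, by Pearson's r of log2(CPM + 1) over the same 20 gates and 10488 genes, are named with their r. Cebpb ran closest to Fcgr3, an activating Fc receptor gene (r = 0.92; 0.90 at D2 and 0.96 at D7), and Cebpd to Hp, the haptoglobin gene (0.95, 0.90 and 0.96). Cebpe ran closest to Trem3, a myeloid receptor gene (0.92, 0.91 and 0.92), Irf8 to BC035044 (0.90, 0.89 and 0.89) and Gata2 to Csrp3 (0.94, 0.87 and 0.94). Cebpa was closest to Gspt2 (0.89, 0.79 and 0.72) and Runx1 to Uck1 (0.89, 0.84 and 0.74). Gfi1 had the loosest match, Ffar2 with 0.81 in naive BM and 0.35 and 0.51 after CTX.

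CTX was compared with naive BM within each gate. At D2, 82 of the 99 pairs of gene and gate had at least 30 UMIs over both libraries, and 17 of them (20.7%) were at least 1 log2 unit apart, 16 higher and 1 lower; over all genes and gates 10.8% of pairs were that far apart. At D7 it was 4 of 78 pairs (5.13%), 3 higher and 1 lower, against 4.14% of all pairs, which is near the background. The D2 and D7 comparisons share the naive library. At D2 the median log2 ratio of all genes was above 0 in every gate of the neutrophil path (0.18 to 0.35), and after division by that median the D2 count was 12.

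The D2 differences began in Kit-positive azurophil-low cells (121 naive and 146 D2 cells), where 6 genes were over 1 log2 unit higher while 15.5% of all genes were that far apart and 12.3% were that far higher. Cebpa was 5.33 CPM in naive BM and 21.6 CPM at D2, a difference of 1.84 (1.21 to 2.94), and Cebpb was 21.7 and 55.9 CPM, a difference of 1.33 (0.95 to 1.81). Spi1 was 25.9 and 79.5 CPM, a difference of 1.58 (1.24 to 2.02), and Irf8 89.8 and 219 CPM, a difference of 1.28 (1.08 to 1.497). The low-count genes Cebpe (9 and 77 UMIs) and Gfi1 (4 and 38 UMIs) differed by 2.01 (1.30 to 3.48) and 1.88 (0.97 to 4.40). Runx1, with 62.4 and 109 CPM, and Gata2, with 66.2 and 89.2 CPM, were 0.79 and 0.42 log2 units higher. At the same depth of 2000 UMIs a cell, Spi1 was found in 4.35% of naive cells (5 of 115; 1.43 to 9.85%) and 18.2% of D2 cells (26 of 143; 12.2 to 25.5%), and Irf8 in 8.70% (4.25 to 15.4%) and 20.98% (14.6 to 28.6%). As the mean of the cells' own CPM, the differences of Spi1, Irf8 and Cebpe were 0.87, 0.79 and 0.93, under the fold, and with gate thresholds raised 1.5 times that of Irf8 was 0.67.

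The make-up of that gate differed between the libraries. Summed erythroid markers (6 of 6 detected in each library) were 2579 CPM in naive BM, 845 CPM at D2 and 696 CPM at D7, azurophil granule markers (4 of 4) were 263, 1532 and 722 CPM, and MHC class II markers (4 of 4) were 565, 835 and 3361 CPM. In the subset with under 0.1% of UMIs in each of those lists (46, 73 and 21 cells), chosen after seeing the data, the D2 differences were smaller: 0.91 (0.10 to 1.88) for Cebpb, 0.67 (0.05 to 1.37) for Spi1 and 0.60 (0.28 to 0.93) for Irf8, none of them past 1 log2 unit. Cebpa had 4 and 16 UMIs there, with a difference of 0.49 (-1.07 to 2.60), and Gfi1 2 and 12 UMIs, with 0.93 (-1.02 to 4.35), both under the count minimum. Cebpe had 3 UMIs in the naive and 2 in the D2 subset, so its whole-gate difference was not seen there. Runx1 differed by 0.03 in the subset and Gata2 by -0.34 (-0.66 to -0.01).

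At D7 the same gate held 43 cells and had the highest Irf8 and Spi1 levels of the 3 libraries. Irf8 was 412 CPM, 2.19 (1.94 to 2.46) log2 units above naive, and Spi1 was 107 CPM, 2.01 (1.54 to 2.56) units above, with 15.4% of all genes that far apart. In the 21-cell subset low in erythroid, azurophil and MHC class II genes the Irf8 difference was -0.01 (-0.56 to 0.53) and that of Spi1 0.36. Gata2 differed in the subset by -1.93 (-2.91 to -1.13) log2 units at D7, and in the whole gate by -0.39 (-0.997 to 0.16).

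**Figure D4:**
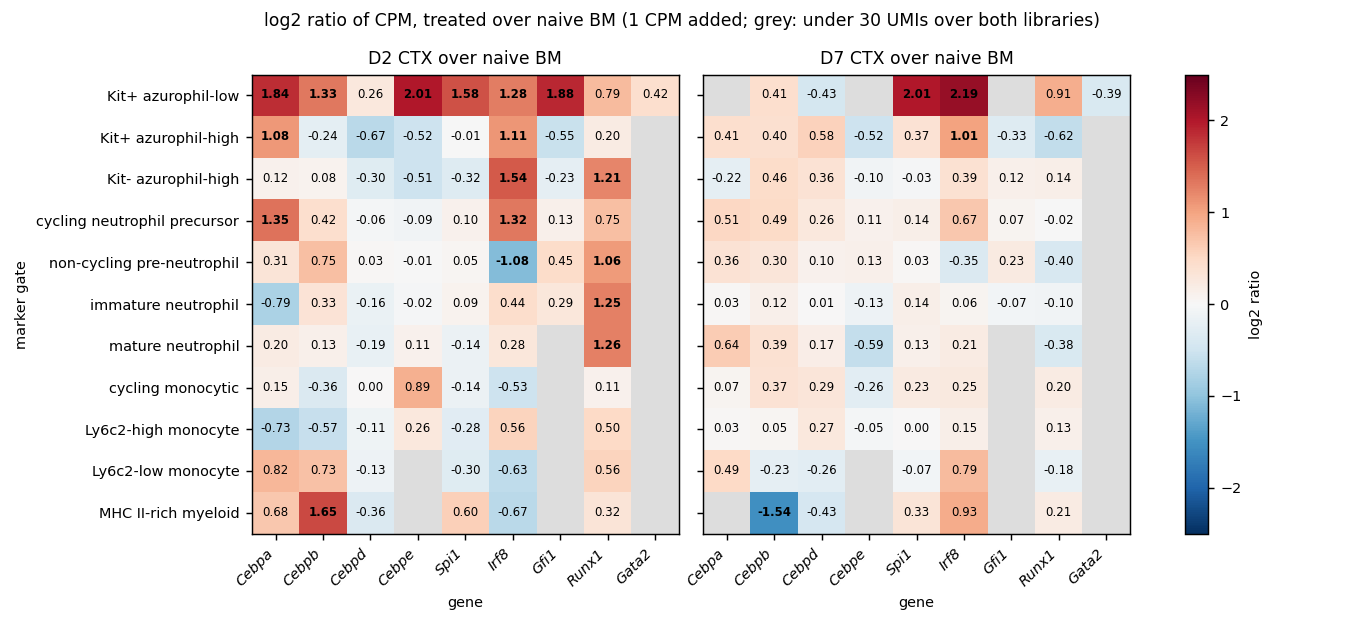
Colour maps of the log2 ratio of CPM (1 CPM added) for each gene and gate, D2 CTX over naive BM and D7 CTX over naive BM; grey cells had under 30 UMIs over both libraries. At D2, 17 of 82 pairs are at least 1 log2 unit apart, with Irf8 in the azurophil-high gates and Runx1 along the neutrophil path among the higher ones, and at D7 4 of 78.

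Irf8 in the azurophil-high gates was higher after CTX. In Kit-negative azurophil-high cells its level was 106 CPM in naive BM (160 UMIs in 20 of 149 cells), 312 CPM at D2 (283 UMIs in 17 of 33 cells) and 140 CPM at D7 (666 UMIs in 83 of 448 cells). The D2 difference was 1.54 (1.26 to 1.84), where 13.4% of all genes were at least 1 log2 unit apart. In Kit-positive azurophil-high cells Irf8 was 60.3, 131 and 122 CPM, differences of 1.11 (0.66 to 1.60) at D2 (11.4% of all genes) and 1.01 (0.58 to 1.48) at D7 (4.04% of all genes). One naive cell held 37 of the 55 Irf8 UMIs of that gate; without the richest cell of each library the differences were 2.41 (1.74 to 3.27) and 2.25 (1.59 to 3.098). In cells with at least 500 genes and under 10% mitochondrial UMIs the D7 difference was 0.66, and divided by the median ratio of all genes the D2 difference was 0.86. Over the same cells Cebpe, the granule factor, was lower at D2, at -0.52 (-0.80 to -0.23) log2 units in Kit-positive and -0.51 (-0.76 to -0.28) in Kit-negative cells. Cebpa was 1.08 (0.38 to 1.90) log2 units higher in Kit-positive azurophil-high cells at D2.

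Azurophil-high cells of both gates were then divided at 0.2% of UMIs in monocyte markers (Csf1r, Ly6c2, F13a1, Ms4a6c, Ccr2, Fn1), a division chosen after seeing the data. The marker-high part was 9.80% of azurophil-high cells in naive BM (20 of 204), 13.8% at D2 (8 of 58) and 10.6% at D7 (60 of 566), and 85.7% (30 of 35) and 61.0% (64 of 105) in the naive and CTX sorted libraries. In every whole BM library the intervals of Irf8, Cebpe, Gfi1, Cebpb and Runx1 did not overlap between the parts. In naive BM Cebpb was 594 CPM marker-high and 209 CPM marker-low, and Runx1 94.7 and 44.0 CPM. Spi1 was apart in naive BM and at D7 and overlapped at D2, and Cebpa overlapped in each library. Cebpd overlapped in naive BM (194 CPM marker-high, 141 to 259, and 228 CPM marker-low, 208 to 249) and at D2. At D7 Cebpd did not overlap (233 CPM, 199 to 270, and 327 CPM, 312 to 343). Gata2 had 0 to 3 UMIs in each part. Marker-high cells held 792 CPM of Irf8 in naive BM, 568 at D2, 823 at D7, and 746 and 795 in the sorted libraries, beside 656, 455, 778, 591 and 600 CPM in cycling monocytic cells of the same libraries. Their Cebpe was 47.3, 32.0, 21.4, 59.3 and 75.8 CPM in the same order. Marker-low cells held 327, 223 and 310 CPM of Cebpe in whole BM and 71.9, 58.5 and 66.3 CPM of Gfi1. In the sorted libraries the marker-low cells also held Irf8, at 686 CPM (546 to 852; 5 cells) in naive, which overlapped with the marker-high part, and 313 CPM (272 to 359; 41 cells) in CTX.

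Within the marker-low cells, Irf8 still differed between libraries. It was 14.2 CPM in naive BM (31 UMIs in 10 of 184 cells), 170 CPM at D2 (297 UMIs in 24 of 50 cells) and 42.0 CPM at D7 (231 UMIs in 45 of 506 cells). The log2 differences from naive were 3.495 (3.05 to 4.17) at D2 and 1.499 (1.02 to 2.15) at D7, while Gfi1 differed by -0.29 (-0.67 to 0.07) and -0.12 (-0.39 to 0.16). Summed monocyte markers in the marker-low cells were 231, 673 and 288 CPM and 5, 11 and 20 cells lay within 1.5 times below the threshold, and azurophil granule genes were 37137, 18801 and 35504 CPM. Median totals were 11641, 30660.5 and 10240.5 UMIs per cell. The part of these in the Irf8 difference was not tested.

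**Figure D5:**
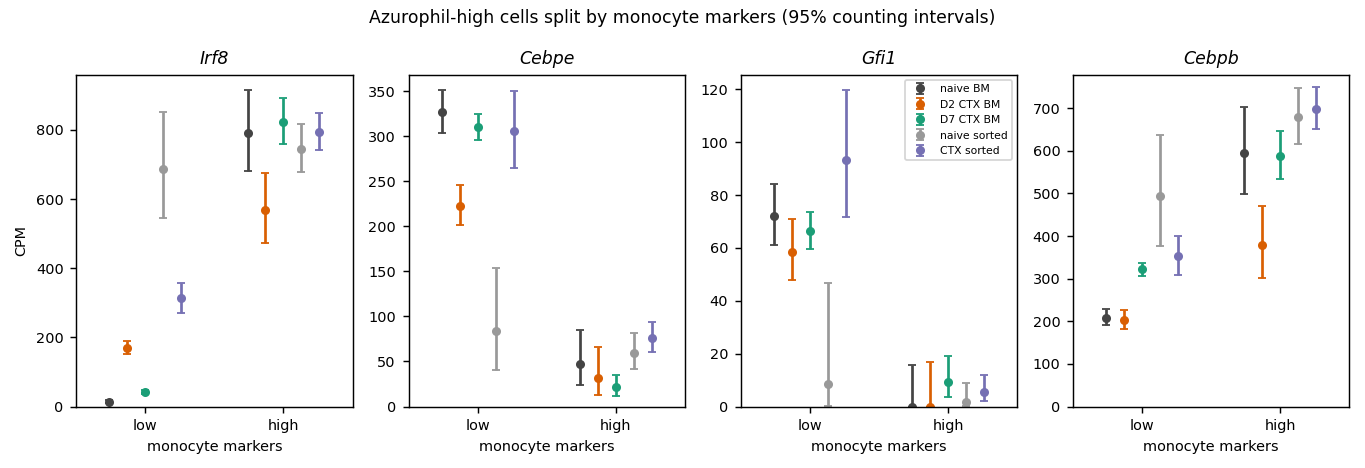
Levels in CPM of Irf8, Cebpe, Gfi1 and Cebpb in azurophil-high cells with low or high monocyte markers, in the 5 libraries; points are 1 library each and bars are 95% counting intervals. Irf8 is at 568 to 823 CPM in marker-high cells of every library, and Cebpe is at 223 to 327 CPM in marker-low cells of the whole BM libraries.

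Single azurophil-high cells rarely held both Irf8 and a granulocytic factor in naive BM. A Cebpe and an Irf8 UMI were found together in 3.92% of naive cells (1.71 to 7.58%), under the 9.55% that the product of the single shares gives. At D7 it was 6.54% (4.64 to 8.90%) against 14.8%, and at D2 39.7% (27.0 to 53.4%) against 45.2%. Without thinning, only D2 of the whole BM libraries had an interval that held the product. Both sorted libraries held it as well, with 60.0% (42.1 to 76.1%) against 61.1% in naive and 46.7% (36.9 to 56.7%) against 53.7% in CTX. Gfi1 and Irf8 were found together in 1.47% of naive cells (0.304 to 4.24%) against a product of 5.65% and in 3.36% of D7 cells (2.03 to 5.19%) against 7.59%. In CTX sorted cells it was 7.62% (3.35 to 14.5%) against 20.3%, also under the product. The interval held the product at D2 (27.6%, 16.7 to 40.9%, against 33.2%) and in naive sorted cells (5.71%, 0.70 to 19.2%, against 5.55%). Cebpa and Irf8, in contrast, were found together in 5.88% of naive cells (3.08 to 10.0%) against a product of 2.58%. The D2 cells were the deepest, and these shares were not thinned. With cells thinned to 2000 UMIs, the products of all 36 pairs of members lay inside their intervals in Kit-positive azurophil-high cells. That held in naive BM, D2 CTX and D7 CTX alike (55, 25 and 118 cells). In Kit-negative azurophil-high cells all 36 lay inside at D2 (31 cells). There it was 33 in naive BM (132 cells) and 34 at D7 (435 cells). At D2 no thinned azurophil-high cell of either gate held a Cebpa or Gata2 UMI, so pairs with them could only lie inside. Only 2 of the 55 naive Kit-positive cells held an Irf8 UMI, so no pair with Irf8 could lie below its product there. In such small gates, a count of pairs inside cannot show that members were held independently. The part of depth and of cell number in the D2 contrast was not tested.

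Runx1 was higher at D2 in the neutrophil gates from Kit-negative azurophil-high cells on. In Kit-positive azurophil-high cells it was 66.9 CPM in naive BM and 76.9 CPM at D2, a difference of 0.20 (-0.30 to 0.71). It was 37.9, 89.2 and 41.9 CPM in Kit-negative azurophil-high cells of naive BM, D2 CTX and D7 CTX, a D2 difference of 1.21 (0.73 to 1.75). In pre-neutrophils it was 31.1, 66.1 and 23.4 CPM (1.06 at D2, 0.65 to 1.51; 12.4% of all genes that far apart). Immature neutrophils held 21.8, 53.4 and 20.3 CPM (1.253, 0.89 to 1.70; 3.54% of all genes), and mature neutrophils 26.9, 65.7 and 20.5 CPM (1.26, 0.85 to 1.74; 7.74% of all genes). In cycling precursors the D2 difference was 0.75 (0.48 to 1.05). Divided by the median ratio of all genes, the Runx1 differences of Kit-negative azurophil-high cells, pre-neutrophils and mature neutrophils were 0.92, 0.71 and 0.96, under the fold. Runx1 was also higher at D2 outside the path, with 114 and 164 CPM in naive and D2 B lineage cells, 86.7 and 205 CPM in NK cells and 109 and 144 CPM in T cells. At D7 the pre-neutrophil difference from naive was -0.40 (-0.67 to -0.15) and that of mature neutrophils -0.38 (-0.97 to 0.19).

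Cycling neutrophil precursors (416 naive and 262 D2 cells) differed at D2 in Cebpa, with 12 and 32 UMIs (1.35, 0.68 to 2.76), and in Irf8, with 14.7 and 38.3 CPM (1.32, 0.97 to 1.81), where 12% of all genes were that far apart. One naive cell held 40 of the 72 Irf8 UMIs, and without the richest cells the Irf8 difference was 2.04 (1.63 to 2.81), and with doublets removed 3.26. With gate thresholds raised 1.5 times it was 0.64, under the fold. Both Irf8 levels of this gate lay under the 40.8 CPM of naive T cells. As the mean of the cells' own CPM, the Irf8 difference was 0.52 and the Cebpa difference -0.03. The only lower D2 pair was Irf8 in pre-neutrophils, with 22.9 and 10.3 CPM and 10 D2 UMIs in 5 of 128 cells (-1.08, -2.24 to -0.22). Both levels lay under the 40.8 CPM of naive T cells, and with gate thresholds raised 1.5 times the difference was 0.45, in the other direction. Cebpe, Cebpd, Spi1 and Gfi1 stayed under 1 log2 unit from naive at every gate from cycling precursors to mature neutrophils at both days, where they passed the count minimum. At D7 the share of all genes that far apart was 2.57% in Kit-negative azurophil-high cells, 2.38% in cycling precursors, 1.65% in pre-neutrophils, 2.85% in immature and 5.21% in mature neutrophils. Cebpb was 0.49 (0.38 to 0.60) log2 units higher in cycling precursors and 0.39 (0.31 to 0.47) higher in mature neutrophils at D7, under the fold.

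In the monocyte gates the D2 differences of Cebpb and Irf8 had different directions by gate. Cebpb was 585, 454 and 753 CPM in cycling monocytic cells of naive BM, D2 CTX and D7 CTX, and 912, 614 and 945 CPM in Ly6c2-high monocytes. The D2 differences were -0.36 (-0.50 to -0.23) and -0.57 (-0.75 to -0.40). In Ly6c2-low monocytes Cebpb was 843, 1404 and 717 CPM, 0.73 (0.54 to 0.94) higher at D2. Irf8 was 656, 455 and 778 CPM in cycling monocytic cells, -0.53 (-0.66 to -0.39) at D2, and 452, 665 and 502 CPM in Ly6c2-high monocytes, 0.56 (0.37 to 0.74) at D2. None of these passed 1 log2 unit at D2, where 8.88% of all genes were that far apart in cycling monocytic cells, 9.71% in Ly6c2-high and 10% in Ly6c2-low monocytes. At D7 no member passed the fold in these 3 gates either, with 1.98%, 1.63% and 3.74% of all genes that far apart. The D2 Ly6c2-high gate held 48 cells, against 287 in naive BM and 408 at D7.

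MHC II-rich myeloid cells (45, 51 and 41 cells) held the largest Cebpb differences. Cebpb was 265 CPM in naive BM, 835 CPM at D2 and 90.5 CPM at D7, differences of 1.65 (1.27 to 2.06; 12% of all genes that far apart) and -1.54 (-2.27 to -0.87; 6.71% of all genes). Irf8 went the other way, with 762, 477 and 1452 CPM. Summed plasmacytoid dendritic markers in the gate were 0, 11.9 and 138 CPM. One D2 cell held 54 of the 160 D2 Irf8 UMIs, and without the richest cells the D2 Irf8 difference was -1.04 (-1.41 to -0.69), past 1 log2 unit, where it was -0.67 with them.

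At D2 Cebpb was also higher in cells that should hold little of it. In B lineage cells it was 31.3 CPM in naive BM, 122 CPM at D2 and 30.2 CPM at D7, and in erythroid cells 27.8, 280 and 30.8 CPM. The D2 level in Kit-positive azurophil-low cells, 55.9 CPM, was below that of B lineage cells of the same library. T cells held 106 and 108 CPM in naive BM and D2. The part of free RNA in the D2 values of Cebpb was not tested.

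Sorted CD11b+Ly6Chi monocytes gave 438 naive and 735 CTX cells in the cycling monocytic gate, 939 and 1116 in the Ly6c2-high gate and 416 and 518 in the Ly6c2-low gate, of 1875 and 2539 cells in myeloid gates. Of 36 pairs of gene and gate in this comparison 29 passed the count minimum, and 2 were at least 1 log2 unit apart (6.90%, against 1.38% of all pairs). Both were in azurophil-high cells and none in a monocyte gate. In Kit-negative azurophil-high cells (33 naive and 92 CTX cells; 3.28% of all genes that far apart) Cebpe was 65.9 and 154 CPM, a difference of 1.21 (0.76 to 1.72), and Gfi1 had 1 and 52 UMIs (1.498 and 33.2 CPM). Over both azurophil-high gates, marker-low cells were 14.3% of the naive sorted cells (5 of 35) and 39.0% of the CTX sorted cells (41 of 105). In the marker-high part alone, Cebpe differed by 0.35 (-0.22 to 0.95). The part of this make-up in the Cebpe and Gfi1 differences was not tested.

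Cebpb was lower in CTX in all 3 gates of sorted monocytes, by less than 1 log2 unit. Its level was 963 CPM in naive and 829 CPM in CTX cycling monocytic cells, 1414 and 1086 CPM in Ly6c2-high cells and 1459 and 1108 CPM in Ly6c2-low cells. The differences were -0.22 (-0.26 to -0.17), -0.38 (-0.42 to -0.34) and -0.40 (-0.46 to -0.34) log2 units, under the fold, which 0.614%, 1.02% and 1.35% of all genes passed in these gates. Runx1 differed by -0.22 (-0.37 to -0.08) in cycling monocytic and -0.26 (-0.52 to -0.01) in Ly6c2-low cells, and Cebpa by 0.30 (0.10 to 0.51) in Ly6c2-low cells. In Ly6c2-high cells Irf8 was 405 and 399 CPM, Spi1 418 and 414 CPM, Cebpd 326 and 334 CPM, Cebpa 89.7 and 98.9 CPM and Runx1 64.2 and 65.1 CPM. Gfi1 had 8 UMIs in all naive sorted cells and 81 in all CTX sorted cells, a log2 difference of 1.49 with 1 CPM added, where 1.23% of all genes were that far apart. The 1 CPM added pulls so low a level toward 0, and the interval of the counts alone was 1.93 to 4.24. Gata2 had 0 and 2 UMIs.

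Other transcription factors, in lists chosen with earlier results known, placed the members among their families. In D2 Kit-positive azurophil-low cells 7 of 20 stem and progenitor factors were at least 1 log2 unit higher and 1 lower (median 0.58, beside 0.18 for all genes), led by Erg (1.89), Runx2 (1.74) and Mecom (1.68), while Gfi1b, an erythroid and megakaryocyte factor, was -1.53. Of granulocyte factors 2 of 7 were higher, and of monocyte and dendritic factors 5 of 13, beside 12.3% of all genes that far higher. In D2 cycling neutrophil precursors 10 of 12 monocyte and dendritic factors were that far higher and none lower (median 1.2504, beside 0.22; 10.2% of all genes that far higher). Tfec was at 1.48 and Klf4 at 1.38. At D7 the count in that gate was 1 of 12 (0.851% of all genes). In the sorted cells 3 of 17 monocyte and dendritic factors were that far lower in CTX (0.881% of all genes), namely Id3, Egr1 and Nr4a1, and none was higher.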

How the data were processed

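Libraries were made with 10x 3′ V3 reagents. Per the labels' processing notes the authors used Cell Ranger 3.1 on mm10 (and Seurat 5.0). The deposited matrices hold raw UMI counts per gene and barcode, not normalized, and fewer barcodes than the cells the study counted. Cells were kept with at least 200 genes and under 20% mitochondrial UMIs, and gated in a fixed order by the share of UMIs in marker lists (1% for azurophil, specific granule and immature neutrophil genes, 0.2% for monocyte genes, 0.1% for cell cycle and mature neutrophil genes, at least 1 Kit UMI for Kit-positive). Doublets were kept in the values reported. UMIs were summed per library and gate. Levels have exact Poisson intervals, ratios exact conditional intervals of 2 counts, shares Clopper-Pearson intervals. Ratios add 1 CPM and need at least 30 UMIs over both groups. UMIs collapse PCR copies, but cells of 1 pool are not replicates. The 9 members were named in full, and other factors where among the 3 most extreme of a list. The closest match of Spi1 and a factor that the rule names are not reported here. Members, lists and markers were chosen with earlier results of these data known. On simulated counts for the D7 and naive Ly6c2-high comparison (8163 genes), 176 of 200 genes changed by 1.5 log2 units were recovered and 37 of 7976 unchanged genes passed the fold. Of 31053 gene IDs, 30934 were found in the GENCODE M21 annotation of GRCm38, which gave the coordinates. Alternatives covered cell filters, thresholds, doublet removal, scaling, weighting, pseudocount, count minimum and background. Python 3.11.15, numpy 2.4.6, scipy 1.17.1, pandas 2.3.3, scanpy 1.11.5 and matplotlib 3.10.9 were used.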

Additional observations from a re-analysis of the deposited data

Results flagged for a closer look

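In each pair below the counting intervals lay on opposite sides of 0 in the groups named, with 1 library per group; the differences between the groups were not tested. At D2, Irf8 was 1.54 log2 units above naive BM in Kit-negative azurophil-high cells and -1.08 in non-cycling pre-neutrophils, where it was 0.45 with gate thresholds raised 1.5 times. In Kit-negative azurophil-high cells Cebpb was 0.46 log2 units above naive in whole BM at D7 and -0.19 in the sorted libraries, and Irf8 was 0.39 in whole BM and -0.28 in the sorted libraries. Monocyte markers were high in 10.6% of D7 azurophil-high cells and in 61.0% of CTX sorted ones. In cycling monocytic cells Cebpb was 0.37 log2 units above naive in whole BM at D7 and -0.22 in the sorted libraries, and Spi1 was 0.23 and -0.095.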

How the results depend on the processing

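The count of D2 pairs at least 1 log2 unit apart, 17, became 10 with gate thresholds raised 1.5 times, 11 as the mean of the cells' CPM and 26 with no count minimum. The D7 count, 4, became 8 with thresholds lowered 1.5 times and 12 with no count minimum. The sorted count, 2, became 0 with thresholds raised and 1 with thresholds lowered or as the mean of the cells' CPM. The other alternatives kept these counts, and the counts behind the members' levels and shares of cells, within 1.5 times of the values reported. For single genes, 282 values moved by less than the counting interval, 37 by more, and 3 changed sign: Cebpa in D2 cycling neutrophil precursors (-0.028 as the mean of the cells' CPM), Irf8 in D2 pre-neutrophils (0.45 with thresholds raised) and Irf8 in D7 Kit-positive azurophil-low cells (-0.0060 in cells low in erythroid, azurophil and MHC II genes, an alternative added after seeing the data). The cause was not tested. The 282 include values that an alternative could not move. The count minimum selects genes and does not enter a gene's own ratio. The B lineage level was subtracted only for Cebpa, Cebpd, Cebpe and Gata2. Irf8 in D2 cycling precursors ranged from 0.52 as the mean of the cells' CPM to 3.26 with doublets removed. Without the cell richest in the member, also added after seeing the data, the counts were 18, 5 and 2. Scrublet's own threshold called 0 to 187 cells per library, so the highest-scoring cells at 0.8% per 1000 cells were removed instead. No paired analysis was possible because each group was 1 library, and for the same reason no replicate could be left out. Gates with few cells (25 and 33 D2 azurophil-high cells) limit what can be seen at D2.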
